A study of Saccharomyces cerevisiae with 24 samples.

Results

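Cytosolic ribosomal protein genes encode the proteins of the ribosome that translates messenger RNAs made in the nucleus. Membership followed a rule on gene names, set with earlier results of these data known. The rule took genes called RPL or RPS with a number and an optional A or B, plus the stalk genes RPP0, RPP1A, RPP1B, RPP2A and RPP2B. It gave 137 of the 7126 genes in the table. RPP1, which encodes a ribonuclease P subunit, was left out. The large subunit had 81 genes for 46 proteins, stalk included, and the small subunit 56 genes for 32 proteins. An A and a B copy encoded 59 of the proteins (35 of the large and 24 of the small subunit), and 19 proteins had 1 gene. The genes lay on 15 chromosomes of build sacCer3, 89 of them had a coding intron, and all 137 passed the filter on low values.

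RNA-seq libraries of budding yeast of strain CEN.PK were compared at 12 combinations of genotype and time, with 2 libraries each. The genotypes were rph1Δ, without the H3K36 demethylase Rph1; set2Δ, without the H3K36 methyltransferase Set2; H3K36A, labelled as carrying alanine for that lysine in both HHT1 and HHT2; and WT. Log-phase cells grown in the rich lactate medium YPL (0 h) were washed once with the minimal lactate medium SL and kept in it for 1 h or 3 h, so every 1 h and 3 h library differs from its 0 h counterpart in medium as well as time. Nothing in the labels says that the 2 libraries of a group came from separate cultures, so p-values measure only the spread between libraries, which may be technical.

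The deleted genes went with the labels: RPH1 had 8 counts over the 6 rph1Δ libraries against 3336 in WT, and SET2 had 0 in set2Δ against 1641 in WT. HHT1 and HHT2 had 5 and 2 counts in H3K36A against 16771 and 23721 in WT. Their counts were thus nearly absent, where the label names a substitution in both genes and not their loss. How the altered histone is expressed is not given in the labels. The rph1Δ libraries held 0 counts of the mating-type gene HMRA1, against 35 to 118 per WT library, so in every rph1Δ comparison the loss of RPH1 and a difference in mating type cannot be told apart. Libraries held 6623458 to 7677684 gene counts, and a ribosomal protein gene had between 17 and 31289 counts in a library.

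Ribosomal protein genes are transcribed as a group through the general factor Rap1, the forkhead factor Fhl1 and its coactivator Ifh1, and the growth kinases TORC1 and protein kinase A govern their output. Their transcripts are among the most abundant of a growing yeast cell and fall when nutrients run short. Most exist as A and B copies left by an ancient genome duplication, and the copies can differ in promoter, intron and untranslated regions while encoding nearly the same protein. Set2 methylates histone H3 along transcribed genes, and Rph1 removes that methylation.

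The genes held a large part of all gene counts in rich medium and a small part 1 h after the change. Their share of gene counts at 0 h was 15.1% and 14.5% in the rph1Δ libraries, 14.6% and 13.1% in set2Δ, 13.6% and 13.9% in H3K36A, and 15.2% and 14.6% in WT. At 1 h it was 0.989% and 0.992% in rph1Δ, 0.905% and 0.810% in set2Δ, 0.761% and 0.715% in H3K36A, and 1.11% and 1.08% in WT, so that every mutant library lay below both WT libraries. At 3 h the shares were 2.83% and 2.93% in rph1Δ, 3.55% and 3.64% in set2Δ, 2.92% and 3.10% in H3K36A, and 3.41% and 3.46% in WT: rph1Δ and H3K36A lay below WT and set2Δ above it. In bulk RNA, fewer cells transcribing these genes and less of their RNA per cell cannot be told apart. The summed per-length level (FPKM, counts divided by gene length and library total) of the large-subunit genes was 1.26 to 1.35 times that of the small-subunit genes in every group mean.

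**Figure D1:**
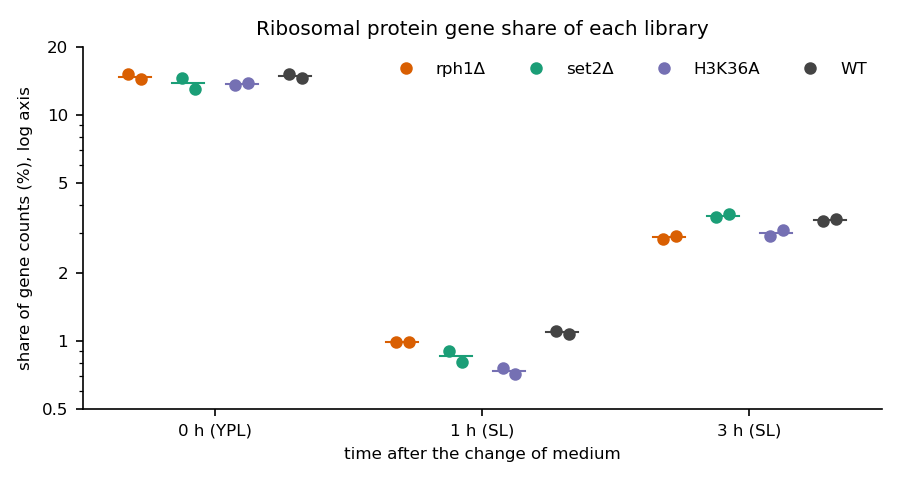
Share of all gene counts (%, log axis) held by the 137 ribosomal protein genes in each of the 24 libraries, by time and genotype; points are libraries and short lines the mean of the 2. The share was 13.1% to 15.2% at 0 h, 0.715% to 1.11% at 1 h and 2.83% to 3.64% at 3 h.

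Levels of single genes in rich medium spanned a wide range. In WT at 0 h the median per-length level was 2088 FPKM. The lowest levels belonged to RPL15B, the minor copy for a protein of the large subunit (64.0 FPKM), and RPS28B (322 FPKM), and the highest to RPS31 (8085 FPKM), which encodes a small-subunit protein fused to ubiquitin, and RPL10 (5766 FPKM), whose protein joins the large subunit late. The median fell to 148 FPKM at 1 h, when RPS26B was lowest (20.3 FPKM) and RPS30A highest (1043 FPKM), and it was 488 FPKM at 3 h. The spread between the genes relative to their mean (coefficient of variation of FPKM) was 0.526 at 0 h, 0.785 at 1 h and 0.672 at 3 h in WT, and 0.942 in H3K36A at 1 h. These are descriptions of group means over 2 libraries.

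The change of medium lowered all the ribosomal protein genes but 1 within 1 h. In WT, 136 of 137 were lower at 1 h than at 0 h, against 34.8% of all 6503 genes tested, and 1 was higher, against 37.3% (edgeR quasi-likelihood test, Benjamini-Hochberg adjusted p under 0.05, the rule for every call here). The median log2 fold change was −3.80, a level 14.0 times lower, where genes tested outside the set had a median of 0.09. For 136 genes both 1 h libraries lay below both 0 h libraries, a separation that 40.3% of all genes tested showed in that direction. Large- and small-subunit genes both had a median of −3.80, with 80 of 81 and 56 of 56 lower, and the 5 stalk genes, whose proteins recruit the translation factors, had a median of −3.89. Genes with and without a coding intron had medians of −3.78 and −3.89.

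Among the large-subunit genes, RPL3, whose protein lies near the peptidyl transferase centre, had 54.5 and 44.9 CPM (counts scaled to a common library size by TMM) at 1 h, against 4393 and 4293 CPM at 0 h, in WT. That is a log2 fold change of −6.44 ± 0.12 (SE). RPL5, whose protein binds 5S ribosomal RNA, had 62.4 and 57.4 CPM at 1 h, against 3261 and 3250 CPM at 0 h (−5.76 ± 0.10). RPL10 fell less, to 366 and 354 CPM at 1 h against 4114 and 3978 CPM at 0 h (−3.49 ± 0.10). In none of the 3 did the libraries of the times overlap, a downward separation that 40.3% of all genes tested showed. The stalk base RPP0 fell by 4.62 ± 0.10 and the acidic stalk gene RPP2B by 4.86 ± 0.15 on the log2 scale, while the tunnel-exit gene RPL25 fell by 3.49 ± 0.12. The smallest falls of the large subunit were those of RPL14B (−2.00 ± 0.09), RPL41B (−2.04 ± 0.21) and RPL41A (−2.12 ± 0.23), the last 2 being genes for a very short protein.

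Among the small-subunit genes, RPS26B fell furthest of all: it had 6.71 and 7.61 CPM at 1 h, against 998.8 and 909.5 CPM at 0 h, in WT (−7.06 ± 0.14). RPS26 protein sits at the messenger RNA exit channel. RPS31 fell by 4.86 ± 0.12 on the log2 scale and RPS3, whose protein lies at the messenger RNA entry channel, by 4.71 ± 0.13. RPS30A (−2.00 ± 0.14) fell least of the small subunit, and RPS14B (−2.12 ± 0.11) fell little more, having 54.5 and 51.1 CPM at 1 h against 227 and 232 CPM at 0 h. The range within the small subunit therefore ran from −7.06 to −2.00, and within the large subunit from −6.44 to 1.37.

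The gene that went the other way was RPL15B. In WT it had 106 and 108 CPM at 1 h, against 46.9 and 36.1 CPM at 0 h (log2 fold change 1.37 ± 0.12, edgeR adjusted p = 5.3e-11). It was also higher at 1 h than at 0 h in rph1Δ (1.07 ± 0.12), set2Δ (0.62 ± 0.11) and H3K36A (0.67 ± 0.12). Its partner RPL15A had 84.3 and 78.3 CPM at 1 h, against 2192 and 2033 CPM at 0 h, in WT, so at 1 h the minor copy was the more abundant of the pair in all 8 libraries.

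**Figure D2:**
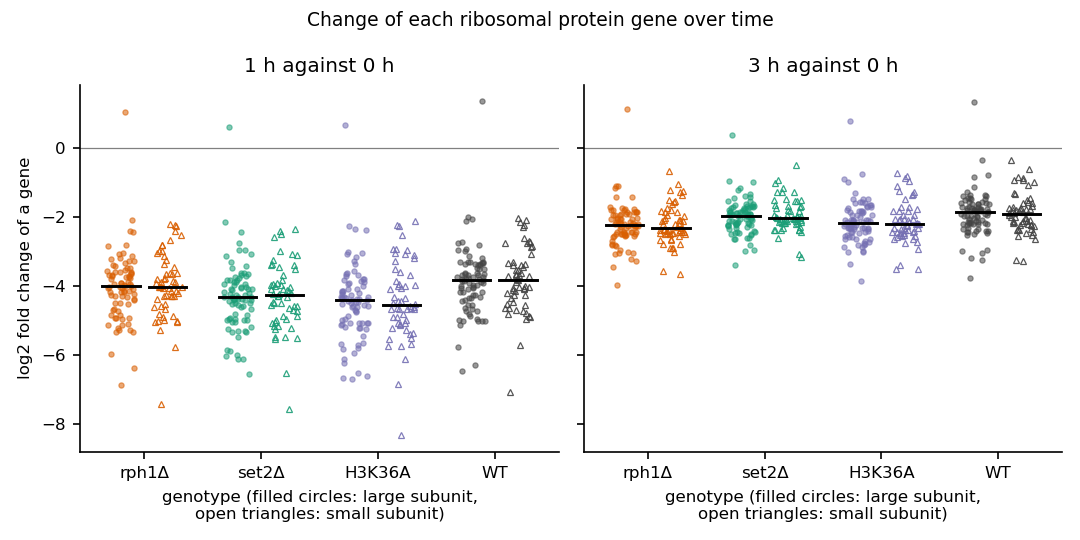
Log2 fold change of each of the 137 genes between times (left, 1 h against 0 h; right, 3 h against 0 h) in the 4 genotypes; filled circles are large-subunit and open triangles small-subunit genes, and bars are medians. Medians at 1 h were −4.00 in rph1Δ, −4.30 in set2Δ, −4.45 in H3K36A and −3.80 in WT over both subunits, and the single point above 0 in each column pair is RPL15B.

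By 3 h the genes had regained part of the loss. In WT, 135 of 137 were higher at 3 h than at 1 h (27.4% of all genes tested were), with a median log2 fold change of 1.93, and 0 were lower by edgeR (18.7% of genes tested), with 0 at an unadjusted p under 0.05, 0 by DESeq2 and 1 by limma. Against 0 h, 135 were still lower at 3 h (34.0% of genes tested), 1 was higher (35.6% of genes tested) and the median was −1.88, with −1.85 for the large and −1.90 for the small subunit. RPL41B did not pass the threshold (−0.32 ± 0.19), though it did without the second WT 3 h library (−0.77). The largest rises were those of deep fallers: RPS26B rose by 3.82 ± 0.14 on the log2 scale between 1 h and 3 h, RPL3 by 3.26 ± 0.11, RPL8A by 3.05 ± 0.10 and RPL5 by 2.83 ± 0.09, a ranking that shares the 1 h libraries with the one by fall. Not every deep faller rose as much. RPP0, whose fall also exceeded the median fall, rose by 1.59 ± 0.10, less than the median rise. RPL9A stayed furthest below its 0 h level: it had 73.6 and 75.2 CPM at 3 h, against 997.3 and 1021 CPM at 0 h (−3.76 ± 0.10), where its copy RPL9B had 331 and 363 CPM at 3 h, against 1229 and 1238 CPM at 0 h (−1.83 ± 0.08). RPS14B was nearly back, at −0.34 ± 0.10, and RPL10 stood at −1.10 ± 0.09. RPL15B had 97.3 and 113 CPM at 3 h, against 106 and 108 CPM at 1 h (−0.03 ± 0.11, not called).

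All 3 mutants showed the same course. In each, 136 genes were lower at 1 h than at 0 h, against 34.3% of genes tested in rph1Δ, 34.9% in set2Δ and 36.3% in H3K36A, and in each RPL15B alone was higher (37.4%, 34.1% and 36.3% of genes tested). At 3 h against 0 h the counts were again 136 lower (33.2%, 32.8% and 32.4% of genes tested in rph1Δ, set2Δ and H3K36A) and RPL15B higher (35.2%, 32.9% and 33.2%), with medians of −2.23 in rph1Δ, −1.98 in set2Δ and −2.18 in H3K36A. Between 1 h and 3 h, 135 genes rose in rph1Δ (median 1.74, 25.1% of genes tested), 136 in set2Δ (2.40, 27.0%) and 136 in H3K36A (2.31, 27.2%). edgeR called 0 lower there in each mutant, where 16.3%, 19.4% and 21.7% of genes tested were; set2Δ had 1 at an unadjusted p under 0.05, 1 by DESeq2 and 1 by limma, and the other mutants 0 by each.

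In rich medium a minority of the genes was called in each mutant. rph1Δ had 1 lower gene of 137, against 2.41% of genes tested, and 0 higher by edgeR, with 1 at an unadjusted p under 0.05, 0 by DESeq2 and 0 by limma. The gene was RPL7B, with 413 and 411 CPM in rph1Δ, against 528 and 480 CPM in WT (−0.29 ± 0.09), and leaving out any 1 of the 4 libraries ended its call. set2Δ had 15 lower genes (8.73% of genes tested), RPL22B (−0.42 ± 0.11) and RPL8A (−0.40 ± 0.07) among them, and 1 higher, RPL15B (0.39 ± 0.12), against 13.3%. Leaving out the first WT 0 h library gave 1 lower gene, the second WT library 8, the first set2Δ library 31 and the second 5, and RPL15B was not called without the second WT library (0.21) or the first set2Δ library (0.30), nor RPL22B without the first WT library (−0.32). H3K36A had 46 lower genes (11.1% of genes tested) with a median over all 137 of −0.19. RPL8A had 1071 and 1046 CPM in H3K36A, against 1500 and 1450 CPM in WT (−0.48 ± 0.07), without overlap. Of all genes tested, 30.8% had both H3K36A libraries below both WT libraries. The count of 46 was 15 without the first WT library and 13 without the first H3K36A library.

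The 2 H3K36A libraries at 0 h lay far apart for some genes, in both directions. RPL41A had 214 and 409 CPM in the 2 H3K36A libraries, against 306 and 264 CPM in WT, and RPS28A 158 and 277 CPM in H3K36A, against 293 and 264 CPM in WT. RPL42A, the gene with the lowest fold change in H3K36A (−0.61 ± 0.12), had 407 and 646 CPM in H3K36A, against 818 and 792 CPM in WT. RPS28B was the 1 gene called higher (13.4% of genes tested were), at 219 and 90.7 CPM in H3K36A, against 65.4 and 72.8 CPM in WT (1.17 ± 0.25), and its call rested on that first library (0.39 without it).

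At 1 h the H3K36 methylation mutants held less ribosomal protein RNA than WT. In H3K36A, 121 of 137 genes were lower than in WT (26.7% of genes tested) and 1 was higher (20%), with a median log2 fold change of −0.80, which was −0.81 for the large subunit, −0.80 for the small subunit and −1.16 for the 5 stalk genes. In set2Δ, 110 were lower (27.3% of genes tested) with a median of −0.61, −0.57 for the large and −0.65 for the small subunit. None was higher in set2Δ by edgeR (20.4% of genes tested were), with 0 at an unadjusted p under 0.05 and 0 by DESeq2, though limma called 6. In rph1Δ, 37 were lower (9.27% of genes tested), with a median of −0.26, and 0 were higher (5.9% of genes tested) by edgeR, by DESeq2, by limma and at an unadjusted p under 0.05. The rph1Δ count depended on single libraries: it was 13 without the first WT library, 23 without the second, 13 without the first rph1Δ library and 24 without the second.

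RPL5 had 29.4 and 25.3 CPM in H3K36A, against 62.4 and 57.4 CPM in WT, at 1 h (−1.13 ± 0.10), and in set2Δ its log2 fold change was −0.61 ± 0.10. RPP2A, an acidic stalk protein gene, had 29.9 and 22.7 CPM in set2Δ and 23.3 and 22.4 CPM in H3K36A, against 65.4 and 61.5 CPM in WT (−1.27 ± 0.15 in set2Δ, −1.47 ± 0.15 in H3K36A). RPL17B, for a protein of the tunnel exit, had 13.5 and 10.9 CPM in set2Δ and 13.1 and 11.9 CPM in H3K36A, against 35.5 and 28.5 CPM in WT (−1.39 ± 0.15 in set2Δ, −1.36 ± 0.15 in H3K36A). In all 3 the H3K36A libraries lay below both WT libraries, as they did in 42% of all genes tested.

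RPL21A had 9.92 and 11.5 CPM in H3K36A, against 34.8 and 30.0 CPM in WT (−1.60 ± 0.16); the gene overlaps the annotated gene YBR190W. RPS26B, the lowest gene at 1 h, had 2.32 and 2.35 CPM in H3K36A, against 6.71 and 7.61 CPM in WT (−1.61 ± 0.26). In rph1Δ the lowest was RPL1A, with 49.6 and 59.6 CPM in rph1Δ, against 87.2 and 83.6 CPM in WT (−0.65 ± 0.13). RPL3 was not called in set2Δ (0.17 ± 0.11), and RPS22B stood apart in H3K36A with 48.8 and 38.4 CPM, against 35.5 and 36.0 CPM in WT (0.29 ± 0.12), a call that ended without the first H3K36A library (0.10), the first WT library (0.28) or the second (0.30).

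**Figure D3:**
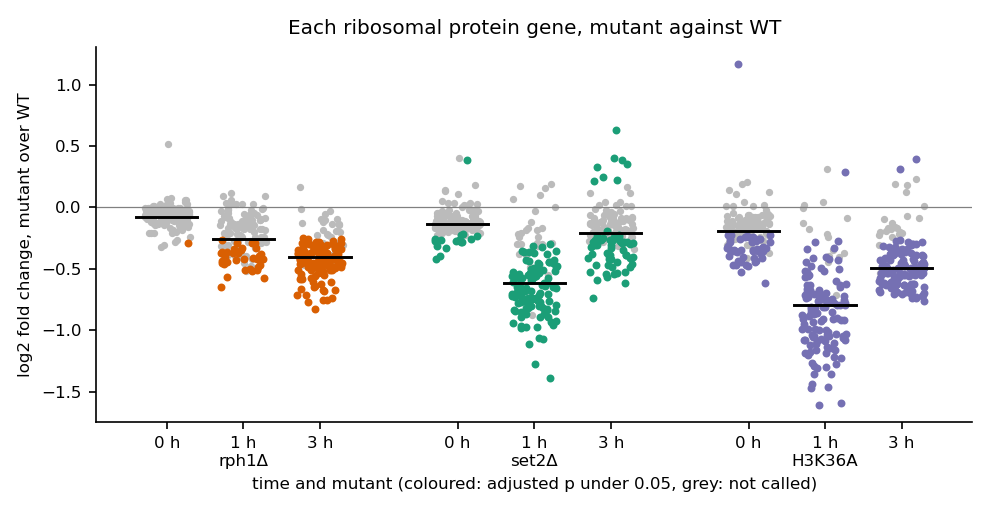
Log2 fold change of each of the 137 genes in rph1Δ, set2Δ and H3K36A over WT at 0 h, 1 h and 3 h; coloured points passed the edgeR threshold, grey points did not, and bars are medians. The medians ran −0.07, −0.26 and −0.41 in rph1Δ, −0.14, −0.61 and −0.21 in set2Δ, and −0.19, −0.80 and −0.50 in H3K36A.

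At 3 h edgeR called most genes lower than in WT in rph1Δ and H3K36A, and fewer in set2Δ. The counts of lower genes depended on the method: DESeq2 gave 102 in rph1Δ and 106 in H3K36A, and limma 64 and 59. In rph1Δ, 110 genes were lower than in WT (16.4% of genes tested) with a median of −0.41, and 0 were higher (11.6%) by edgeR, with 1 at an unadjusted p under 0.05, 0 by DESeq2 and 1 by limma. RPS12, for a protein of the small subunit's beak, had 293 and 308 CPM in rph1Δ, against 509 and 516 CPM in WT (−0.77 ± 0.11), and the stalk gene RPP1A had 230 and 233 CPM in rph1Δ, against 375 and 408 CPM in WT (−0.76 ± 0.12), both without overlap. Both rph1Δ libraries lay below both WT libraries in 33.7% of all genes tested. The count of 110 was 73 without the second WT library and 67 without the first rph1Δ library. In H3K36A, 111 genes were lower (27.6% of genes tested) and 2 higher (18.7%), with a median of −0.50. RPL17A had 186 and 204 CPM in H3K36A, against 320 and 330 CPM in WT (−0.74 ± 0.09).

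In set2Δ at 3 h, 53 genes were lower (27.8% of genes tested) and 8 higher (20.6%), with a median of −0.21. This split depended on the scaling: with library totals in place of TMM factors, which moved the median of all genes tested by 0.23 log2, 3 were lower and 20 higher, and limma on log2(FPKM + 1) gave 2 lower and 19 higher. The 27.8% and 20.6% of genes tested are those of TMM scaling, and no share is given for the alternatives. The lower count was 27 without the second WT library, 26 without the first set2Δ library and 31 without the second. RPS22B had 145 and 146 CPM in set2Δ, against 87.0 and 100.9 CPM in WT (0.63 ± 0.10), and RPL3 had 607 and 653 CPM in set2Δ, against 473 and 482 CPM in WT (0.40 ± 0.09).

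The change in each mutant less the change in WT was tested as a difference of its own. Between 0 h and 1 h, 93 genes fell further in H3K36A than in WT (18.0% of genes tested) and 77 in set2Δ (17.2%), with medians of −0.63 and −0.50 for the difference, whereas 5 fell further in rph1Δ (5.23%). Between 1 h and 3 h, 62 rose more in set2Δ than in WT (10.7% of genes tested) and 50 in H3K36A (9.72%), with medians of 0.41 and 0.33, and 4 rose less in rph1Δ (2.49%). In the other direction, 1 gene in H3K36A (9.9% of genes tested) and 1 in set2Δ (10.9%) fell less by 1 h, and 1 rose less by 3 h in H3K36A (10.2%). edgeR called 0 genes that rose less in set2Δ (10.5%), with 0 at an unadjusted p under 0.05, by DESeq2 and by limma. In rph1Δ it called 0 that fell less (3.29%), with 0 by the same 3 measures, and 0 that rose more (3.51%), with 2 at an unadjusted p under 0.05, 0 by DESeq2 and 1 by limma. The count of 77 was 48 without the first set2Δ 0 h library. RPL17B fell further in set2Δ by 1.30 ± 0.18 on the log2 scale and then rose more by 1.25 ± 0.18. For single genes and for the counts alike, the fall and the rise share the 1 h libraries of the mutant and of WT. A further fall and a larger rise are therefore not independent results. RPP0 rose more in H3K36A by 1.10 ± 0.15.

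set2Δ and H3K36A both lack the methylated lysine, one through the enzyme and the other through the residue, and were compared with each other directly. At 0 h edgeR called 0 genes in either direction (1.54% of genes tested were higher and 1.18% lower in set2Δ), with 12 higher and 1 lower at an unadjusted p under 0.05, and DESeq2 and limma also called 0. At 1 h, 43 were higher in set2Δ than in H3K36A (14.8% of genes tested) and 1 was lower (14.6%). RPS3 had 80.9 and 64.0 CPM in set2Δ, against 40.1 and 40.3 CPM in H3K36A (0.85 ± 0.13). The lower one was RPS0A, for a protein needed late in small-subunit maturation, with 81.5 and 78.3 CPM in set2Δ, against 140 and 129 CPM in H3K36A (−0.75 ± 0.09). Leaving out the first set2Δ library left 14 higher, the first H3K36A library 27 and the second 24.

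At 3 h, 37 were higher in set2Δ (2.23% of genes tested) and 0 lower (2.46%) by edgeR, by DESeq2, by limma and at an unadjusted p under 0.05. RPL9A led, at 0.55 ± 0.11, followed by RPS22A at 0.50 ± 0.09 and RPL5 at 0.44 ± 0.08, whose call ended without the second set2Δ library (0.37). The count of 37 was 18 without the first set2Δ library, 2 without the second, 5 without the first H3K36A library and 13 without the second.

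The 2 copies of a protein started from unequal levels. Coding sequences of the 59 pairs were 69.2% to 99.4% identical (median 93.2%), and 58 pairs had at least 20 counts of each copy in every library. The exception was RPS26, whose B copy had 18 counts in its lowest library. The log2 ratio of the A to the B copy, from FPKM, had a median size of 0.61 in WT at 0 h, and the A copy was the higher in 34 pairs and the B copy in 25. RPL15 (5.68), RPS14 (2.85), RPL18 (2.78) and RPS30 (2.55) leaned most to the A copy, and RPL36 (−2.48) and RPS9 (−2.06) most to the B copy. The SD between libraries of a group, pooled over the 12 groups, had a median of 0.108 over pairs, and no test was made on the ratios. Reads that fit both copies could have been split or dropped in the authors' counting: in 52 pairs at least 50% of the 100-base windows of the coding sequence occurred once in the genome, and 12 of the 137 genes fell under that share.

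In 58 pairs both copies were called lower at 1 h in WT, and in RPL15 the copies went opposite ways. Over the 58 pairs with at least 20 counts, a set that holds RPL15 and leaves out RPS26, the copies' log2 fold changes differed by a median of 0.60, and 17 pairs moved their A to B ratio by at least 1 log2 unit, 4 toward the A copy and 13 toward the B copy. Of the same 58, the threshold was passed by 17 pairs in rph1Δ, 19 in set2Δ and 22 in H3K36A, and 47 moved the same way in all 4 genotypes; RPS26 passed it toward the A copy in each genotype. The windows printed next, from 350 to 51 bases before the coding start in build sacCer3, are of 3 pairs among those that parted most, shown because their coding sequences are almost wholly distinct (96.7% of windows found once for RPL15, 100% for RPS26 and RPL8). Each is written 5′ to 3′ on the strand of its gene. Capitals mark a match, on either strand, to the Rap1 letters CCCANNCA (RPL8A) or the Abf1 letters TCNNNNNNNACG (RPS26A, RPL15A, RPL8B); a window without capitals holds neither. RPS26A has its window at chrVII:148639-148938 on the minus strand, RPS26B at chrV:423602-423901 on the plus strand, RPL15A at chrXII:202641-202940 minus, RPL15B at chrXIII:510399-510698 minus, RPL8A at chrVIII:36076-36375 minus and RPL8B at chrXII:48680-48979 minus.
RPS26A: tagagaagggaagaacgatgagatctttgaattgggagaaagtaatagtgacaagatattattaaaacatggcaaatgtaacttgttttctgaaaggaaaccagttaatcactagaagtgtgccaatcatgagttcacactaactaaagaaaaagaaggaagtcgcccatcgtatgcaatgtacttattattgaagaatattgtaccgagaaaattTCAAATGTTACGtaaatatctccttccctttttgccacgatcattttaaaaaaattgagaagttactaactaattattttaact
RPS26B: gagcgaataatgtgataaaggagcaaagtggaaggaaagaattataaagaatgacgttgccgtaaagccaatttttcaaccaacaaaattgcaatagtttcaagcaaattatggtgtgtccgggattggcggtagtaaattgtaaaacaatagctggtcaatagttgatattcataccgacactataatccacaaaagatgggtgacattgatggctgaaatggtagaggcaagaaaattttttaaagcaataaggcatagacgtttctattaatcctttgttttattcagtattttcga
RPL15A: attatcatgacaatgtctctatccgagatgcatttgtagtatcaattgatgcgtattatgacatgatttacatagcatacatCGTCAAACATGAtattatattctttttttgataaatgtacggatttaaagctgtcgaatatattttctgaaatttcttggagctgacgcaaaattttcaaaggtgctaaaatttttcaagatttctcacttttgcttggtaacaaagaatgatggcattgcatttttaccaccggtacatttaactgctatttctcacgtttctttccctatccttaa
RPL15B: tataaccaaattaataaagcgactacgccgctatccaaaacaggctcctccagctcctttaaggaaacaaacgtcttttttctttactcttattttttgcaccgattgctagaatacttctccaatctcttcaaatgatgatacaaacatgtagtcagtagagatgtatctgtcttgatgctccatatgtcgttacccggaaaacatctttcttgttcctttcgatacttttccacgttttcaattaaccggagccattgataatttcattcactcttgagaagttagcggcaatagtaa
RPL8A: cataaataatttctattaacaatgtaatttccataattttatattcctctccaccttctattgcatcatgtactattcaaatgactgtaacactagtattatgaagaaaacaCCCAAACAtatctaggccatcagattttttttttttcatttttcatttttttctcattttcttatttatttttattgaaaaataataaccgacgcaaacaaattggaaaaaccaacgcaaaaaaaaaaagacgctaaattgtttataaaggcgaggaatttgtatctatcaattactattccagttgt
RPL8B: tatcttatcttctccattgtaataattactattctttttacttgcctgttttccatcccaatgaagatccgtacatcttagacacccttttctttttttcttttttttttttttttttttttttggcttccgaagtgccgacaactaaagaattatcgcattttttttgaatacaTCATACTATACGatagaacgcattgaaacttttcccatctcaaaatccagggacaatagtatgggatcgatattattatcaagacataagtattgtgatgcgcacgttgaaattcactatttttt

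The copies that kept more RNA at 1 h, RPS26A and RPL8B, and the falling copy RPL15A hold an Abf1 match in these windows, the first bases of which lie 134, 175 and 268 bases before the coding start. RPL8A, which fell further than its partner, holds a Rap1 match 238 bases before the start. RPS26B and RPL15B hold neither. In the 500 bases before the start, the Abf1 letters occurred in 42.3% of the 137 genes and 46.1% of all promoters. Other parted pairs differed there: the further faller RPL14A held an Abf1 match and RPL14B none. In RPL26 the A copy, which fell less, held one and the B copy none, and in RPL21 neither copy did. A match is a string of letters and not a bound site, and transcription starts were not in the annotation used.

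The RPS26 copies encode the same small-subunit protein from genes on chrVII:148229-148588 (RPS26A) and chrV:423952-424311 (RPS26B). RPS26A had 156 and 149 CPM at 1 h, against 1654 and 1439 CPM at 0 h, in WT (−3.34 ± 0.13), while RPS26B fell to 6.71 and 7.61 CPM. The log2 ratio of A to B was 0.70 at 0 h, 4.41 at 1 h and 2.44 at 3 h in WT, and at 1 h it was 4.78 in rph1Δ, 4.46 in set2Δ and 5.10 in H3K36A. With RPS26B this low, its 1 h ratio rests on few counts.

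RPL15A lies on chrXII:201976-202590 and RPL15B on chrXIII:509734-510348, and neither has an intron. Their log2 ratio of A to B in WT was 5.68 at 0 h, −0.40 at 1 h and 2.14 at 3 h. At 1 h it was −0.43 in rph1Δ, −0.38 in set2Δ and −0.54 in H3K36A, within the pooled SD of 0.121 of WT or just over it. At 3 h set2Δ had the highest ratio, 2.58, with 2.60 and 2.57 in its libraries, against 2.19 and 2.10 in the WT libraries.

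The RPL8 pair, for a large-subunit protein, moved to the B copy. RPL8A had 19.9 and 18.1 CPM at 1 h, against 1500 and 1450 CPM at 0 h (−6.27 ± 0.10), and RPL8B 149 and 137 CPM at 1 h, against 1994 and 1885 CPM at 0 h (−3.76 ± 0.09), in WT. RPL8B overlaps the annotated gene YLL044W. At 3 h the copies parted again by genotype: RPL8A had 196 and 217 CPM in set2Δ and 195 and 197 CPM in H3K36A, against 160 and 156 CPM in WT, whereas RPL8B had 417 and 402 CPM in set2Δ and 350.1 and 349.5 CPM in H3K36A, against 582 and 546 CPM in WT. RPL8A was thus higher (0.39 ± 0.08 in set2Δ, 0.31 ± 0.08 in H3K36A) and RPL8B lower (−0.46 ± 0.08 in set2Δ, −0.69 ± 0.08 in H3K36A), and no set2Δ or H3K36A library overlapped WT. Of all genes tested, 30.2% in set2Δ and 29% in H3K36A lay wholly above WT at 3 h, and 39.8% and 39.4% wholly below.

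**Figure D4:**
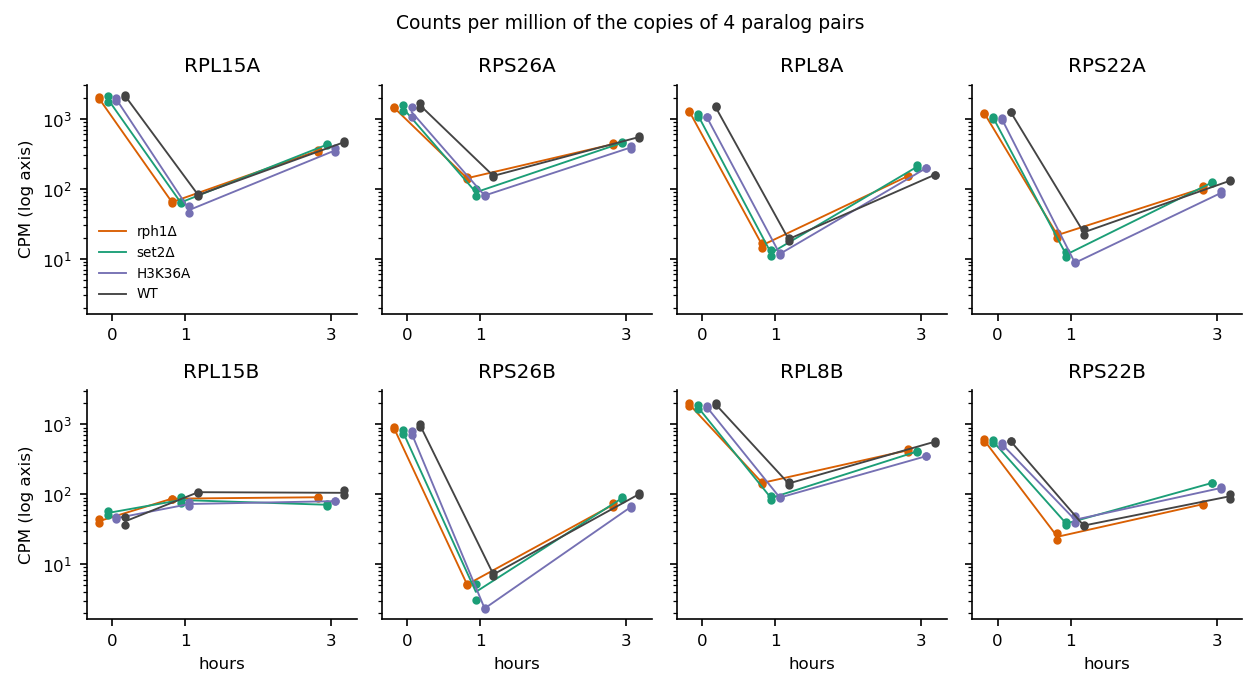
CPM (log axis) of the A and B copies of RPL15, RPS26, RPL8 and RPS22 at 0 h, 1 h and 3 h in the 4 genotypes; points are libraries, shifted sideways by genotype, and lines join geometric means of 2. RPL15B is the copy that stood higher at 1 h than at 0 h, and RPS26B the one with the deepest fall.

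The RPS22 pair, for a protein bound to the central domain of the small-subunit RNA, parted by H3K36 genotype. RPS22A had 12.4 and 10.6 CPM in set2Δ and 8.89 and 8.55 CPM in H3K36A, against 26.2 and 21.7 CPM in WT, at 1 h (−1.06 ± 0.13 in set2Δ, −1.46 ± 0.14 in H3K36A). RPS22B, which overlaps the small nucleolar RNA gene snR44 and has an intron, had 36.8 and 39.7 CPM in set2Δ and 48.8 and 38.4 CPM in H3K36A, against 35.5 and 36.0 CPM in WT. The log2 ratio of A to B at 1 h was −0.18 in rph1Δ, −1.74 in set2Δ and −2.31 in H3K36A, against −0.59 in WT, with a pooled SD of 0.133. Counts of RPS22B could include RNA of snR44, which was not tested.

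In RPS9, for a protein that binds early in small-subunit assembly, the ratio at 1 h stood closer to the A copy in H3K36A than in WT, the opposite direction to RPS22. Its log2 ratio of A to B at 1 h was −1.45 in rph1Δ, −0.64 in set2Δ and 0.02 in H3K36A, against −1.62 in WT. RPS9B fell in H3K36A relative to WT by 1.29 ± 0.12 on the log2 scale, and RPS9A had a log2 fold change of 0.32 ± 0.15, which was not called but was without the first WT library (0.56). Across the 58 pairs with at least 20 counts the copies' log2 fold changes at 1 h differed by a median of 0.29 between H3K36A and WT and 0.27 between set2Δ and WT, and 45 of 59 pairs had both copies lower in H3K36A. That pair count restates the calls of single genes, 121 lower, whose share of all genes tested is given above.

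**Figure D5:**
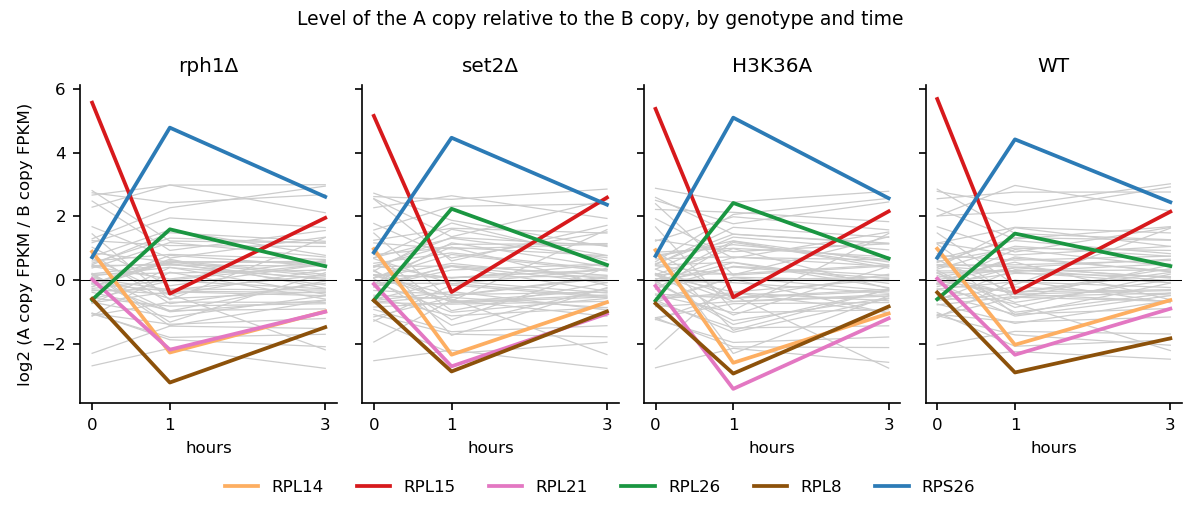
Log2 ratio of the A to the B copy (FPKM) of all 59 pairs at 0 h, 1 h and 3 h in the 4 genotypes, as means of 2 libraries; 6 pairs are coloured. In WT the ratio moved between 0 h and 1 h by −6.08 in RPL15, −3.02 in RPL14, −2.51 in RPL8 and −2.39 in RPL21, and by 3.72 in RPS26 and 2.06 in RPL26.

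In RPL14 both copies fell, the A copy by more, which moved the ratio toward the B copy. RPL14A had 28.6 and 30.9 CPM at 1 h, against 983 and 936 CPM at 0 h (−5.01 ± 0.13), and RPL14B 126 and 118 CPM at 1 h, against 508 and 467 CPM at 0 h (−2.00 ± 0.09), in WT. In RPL26, for a protein beside the tunnel exit, the B copy was the deep faller. It had 25.4 and 27.1 CPM at 1 h, against 866 and 792 CPM at 0 h, while RPL26A had 84.0 and 61.5 CPM at 1 h, against 571 and 519 CPM at 0 h.

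Promoter letters divided the genes little by their change. In the 500 bases before the coding start, on both strands, the Rap1 letters CCCANNCA occurred in 48.9% of the 137 genes and in 13.7% of all 5992 promoters searched. The Abf1 letters TCNNNNNNNACG occurred in 42.3% and 46.1%, the stress response element AGGGG in 27.0% and 34.1%, the PAC element GATGAG in 21.9% and 28.2%, and the RRPE element AAAATTTT in 12.4% and 12.4%. The Rap1 letters were 1 of 4 spellings tried, chosen after the matches were seen; the others gave 21.2%, 21.2% and 47.4% of the genes. The 67 genes with the Rap1 letters had a median log2 fold change at 1 h in WT of −3.89, and the 70 without −3.77.

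Genes that act around the ribosomal proteins changed in part alongside them. Of 14 chaperones and escorts tested, which keep new ribosomal proteins soluble, 13 were lower at 1 h than at 0 h in WT, against 34.8% of all genes tested, with a median of −2.03. The largest falls were those of the ribosome-bound chaperone SSB1 (−6.95 ± 0.16), of SYO1, which carries Rpl5 and Rpl11 to the nucleus (−6.31 ± 0.20), and of the Rpl3 chaperone RRB1 (−5.30 ± 0.14). Of 8 ribosome-bound factors, 7 were lower (against the same 34.8%), led by the scaffold ASC1 (−4.89 ± 0.10), and MBF1 was higher (1.60 ± 0.08), against 37.3% of all genes tested.

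Of 26 regulators, 12 were higher and 7 lower, counts near the shares of all genes tested (37.3% higher, 34.8% lower). CRF1, the corepressor that displaces Ifh1, rose most, to 559 and 571 CPM at 1 h against 13.3 and 15.9 CPM at 0 h (5.27 ± 0.11). The coactivator gene IFH1 fell by 1.56 ± 0.16 and the repressor gene TOD6, which acts on ribosome biogenesis genes, by 4.41 ± 0.19 on the log2 scale, while FHL1 (−0.06 ± 0.14) and RAP1 (0.21 ± 0.10) did not pass the threshold.

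In the H3K36 mutants at 1 h these lists held genes that were higher than in WT as well as lower ones. IFH1 had 35.9 and 44.1 CPM in set2Δ and 29.4 and 40.5 CPM in H3K36A, against 19.3 and 15.4 CPM in WT (1.20 ± 0.16 in set2Δ, 1.01 ± 0.17 in H3K36A). CRF1 was lower in both (−1.14 ± 0.08 in set2Δ, −0.50 ± 0.08 in H3K36A), and TOD6 was higher (2.70 ± 0.21 in set2Δ, 3.01 ± 0.20 in H3K36A). Of the 14 chaperones, 4 were higher and 4 lower in set2Δ (20.4% and 27.3% of all genes tested were), and 4 higher and 7 lower in H3K36A (20% and 26.7%). SYO1 had 6.53 and 6.33 CPM in set2Δ and 4.77 and 5.08 CPM in H3K36A, against 1.94 and 1.46 CPM in WT.

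Over the 12 groups, the genes outside the set whose mean log2 CPM correlated best with the mean of the 137 were SSZ1, a ribosome-associated chaperone gene that overlaps YHR063W-A (Pearson r = 0.998), EMG1 (0.997), GAR1 (0.996), NHP2 (0.995) and PRS4 (0.995). EMG1, GAR1 and NHP2 take part in ribosomal RNA modification. These are correlations over group means of 24 libraries that share the course of time. Of the 137 themselves, RPL15B was least like the mean (−0.76), followed by RPL9A (0.93), RPS14B (0.95) and RPS28B (0.96).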

How the data were processed

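The authors deposited a table of raw counts and of FPKM for 24 libraries (12 groups of 2). Per the submitters' processing notes, HISAT2 2.0.1, HTSeq 0.6.1, cutadapt 1.9.1 and the build sacCer3 were used. The strand setting, and what was done with reads matching several places, were not stated. The deposited FPKM equalled count over length and library total in 100% of values, within 0.0051.

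Counts were tested as deposited with edgeR 4.0.16 in R 4.3.3: TMM scaling (factors 0.823 to 1.19), 12 groups in 1 fit with 12 residual degrees of freedom, and a quasi-likelihood F test for each of 30 comparisons over the 6503 genes that reached 1 FPKM in 2 or more libraries (623 left out). P-values were adjusted by Benjamini-Hochberg over all 6503 genes, and an adjusted p under 0.05 was a call; the SE is the size of the log2 fold change over the square root of F. CPM are TMM-scaled. The ratio of A to B copies came from FPKM, with the SD pooled over groups. The limits of precision are those of 2 libraries a group, at 6623458 to 7677684 counts each.

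Alternatives were median-of-ratios scaling, library totals, TMM without the ribosomal protein genes, no filter, the replicate number as a block, fits of only the groups compared, each library left out, DESeq2 1.42.0, and limma 3.58.1 (trend) on log2(FPKM + 1). The script was tested on simulated data. Libraries that share a number deviated together in 6 of 66 pairs of groups (correlation over 0.1; range −0.25 to 0.17), so the numbers were not taken as pairs.

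The members and gene lists were chosen with earlier results of these data known. Genes named in a comparison are those with the largest calls in each direction, calls against the main direction, fixed examples of each role and genes of the pathway lists; single genes that illustrate a paragraph beyond these were chosen after their values were seen. Promoter sequences are from the RefSeq genome of build sacCer3, in which all 137 genes have the deposited coordinates. Protein sequences were not used here.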

Additional observations from a re-analysis of the deposited data

Results flagged for a closer look

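The change over time in a mutant differed from that in WT, by a test of the difference itself, for the following counts and genes (log2 fold change in the mutant less that in WT, edgeR adjusted p under 0.05). The differences from 0 h to 1 h and from 1 h to 3 h share the 1 h libraries, so they are not independent. The share of all genes tested with the same call stands beside each count in the Results. In set2Δ and H3K36A the larger counts lay above those shares and the counts of 1 below them.

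In rph1Δ, 5 genes fell further between 0 h and 1 h, among them RPL1A (−0.64), RPS22B (−0.55) and RPS13 (−0.47), and 4 rose less between 1 h and 3 h, with RPS21A (−0.76), RPS24A (−0.52) and RPL8B (−0.43) lowest. Each of these 6 calls ended without at least 3 of the 8 libraries in its comparison, one at a time. The first count was 3 or fewer without any 1 of the WT libraries of 0 h and 1 h, the rph1Δ 1 h libraries or the first rph1Δ 0 h library, and the second was 2 or fewer without either WT 1 h library, the second WT 3 h library, the second rph1Δ 1 h library or the first rph1Δ 3 h library, and 8 without the first WT 3 h library. With all libraries, the counts of 5 and 4 were near or below the shares of all genes tested given with them in the Results. The mating-type gene HMRA1 was at 0 counts in rph1Δ, so its part cannot be told apart.

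In set2Δ, 77 genes fell further and 1 fell less between 0 h and 1 h. RPL17B (−1.30), RPP2A (−1.14) and RPL26B (−1.0) led, and RPL9A (0.42) was the 1 that fell less, a call that ended without either WT 1 h library, the second WT 0 h library, the second set2Δ 0 h library or the first set2Δ 1 h library. Between 1 h and 3 h, 62 rose more, led by RPL17B (1.25), RPL8A (1.04) and RPL26B (0.99).

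In H3K36A, 93 genes fell further and 1 fell less between 0 h and 1 h. RPS28B (−1.88) had the lowest value, followed by RPL21A (−1.47) and RPS9B (−1.31). RPS28B had 219 and 90.7 CPM in H3K36A at 0 h, against 65.4 and 72.8 CPM in WT, so the first library carries much of that value. RPS22B (0.42) fell less, a call that ended without either WT 0 h library, either WT 1 h library or the first H3K36A library of either time. Between 1 h and 3 h, 50 rose more, led by RPP0 (1.10), RPL8A (1.02) and RPS26B (0.98, not called without the second WT 1 h library or either H3K36A 1 h library), and 1, RPS0A (−0.59), rose less.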

How the results depend on the processing

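Counts of genes called over time within a genotype stayed within 1.5 times under every alternative run. Over all 30 counts, 315 of 384 alternative counts did and 69 did not. The alternative counts are given without the share of all genes tested under the same alternative. Of 2732 alternative values of 226 named results, 2381 stayed on their side of the threshold or within the library spread, 325 lost their call, 16 gained one, 10 moved beyond the spread and 0 reversed. The cause of the shifts was not tested.

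With library totals the counts of lower genes were 0 in rph1Δ at 0 h, 18 in rph1Δ at 1 h, 3 in set2Δ at 3 h, 24 in H3K36A at 0 h, 71 in H3K36A at 3 h, and 49 for the further fall in set2Δ at 1 h. With limma they were 0, 22 and 64 in rph1Δ at 0, 1 and 3 h, 3 and 2 in set2Δ at 0 and 3 h, 20 and 59 in H3K36A at 0 and 3 h, and 44 for the further fall in set2Δ. Fits of only the groups compared gave 6 and 56 in rph1Δ at 0 and 1 h, 2 and 26 in set2Δ at 0 and 3 h, 19 for the further fall in rph1Δ, and 91 higher in set2Δ than in H3K36A at 3 h. Median-of-ratios scaling gave 23 in set2Δ at 0 h, TMM without the ribosomal protein genes 31 there and 31 at 3 h, and DESeq2 25 at 0 h; the first 2 gave 2 and 2 for the smaller rise in rph1Δ. Library totals moved the median of all genes by −0.27 to 0.29 log2 and limma by −0.26 to 0.28. In set2Δ at 0 h limma called 1 higher and 3 lower.

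With the replicate number as a block, the counts of lower genes were 0, 36 and 111 in rph1Δ, 14, 113 and 52 in set2Δ and 48, 122 and 111 in H3K36A at 0, 1 and 3 h; it moved no other count of calls by over 1.5 times and, of the genes named above, ended the calls of RPL7B in rph1Δ at 0 h (−0.29) and RPS22B in H3K36A at 1 h (0.29). Leaving out each library of the groups compared gave 0, 13 to 24 and 67 to 103 in rph1Δ, 1 to 31, 93 to 112 and 26 to 52 in set2Δ, and 13 to 54, 108 to 119 and 87 to 114 in H3K36A. For set2Δ over H3K36A it gave 14 to 44 higher at 1 h, 2 to 18 at 3 h and 0 to 1 lower at 0 h. The further fall at 1 h gave 0 to 5 in rph1Δ, 48 to 96 in set2Δ and 79 to 103 in H3K36A, and the smaller rise in rph1Δ 0 to 8.

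As a share of summed FPKM the genes held 25.7%, 24.3%, 24.4% and 25.8% at 0 h, 2.21%, 1.98%, 1.72% and 2.40% at 1 h, and 5.68%, 7.23%, 6.12% and 6.54% at 3 h in rph1Δ, set2Δ, H3K36A and WT. Depth limits RPL29 and RPS26B at 1 h, at 17 and 18 counts in their lowest libraries.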
